A study of Mus musculus with 8 samples.

Results

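Chaperones were followed at the RNA level in mouse embryonic stem cells whose transcription had been blocked. The genes described are the heat shock protein, J-protein and CCT chaperonin genes on a mouse expression array. They were taken by symbol, as every gene whose name begins with Dnaja, Dnajb, Dnajc, Hspa, Hspb, Hspd, Hspe, Hsph or Hsp90, or is a numbered Cct gene, which gave 81 of the 20972 gene symbols on the array. Of these, 74 had a probe that could be measured.

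Chaperones bind unfolded or partly folded proteins and help them reach or keep their native shape. Hsp70 proteins do this in cycles of ATP hydrolysis that J-proteins start and nucleotide exchange factors reset, Hsp90 proteins act late on clients such as kinases, and the CCT ring folds actin and tubulin in its cavity. Some chaperone genes are transcribed at a steady high level, whereas others are switched on by heat shock factor when misfolded protein accumulates in the cytosol, or by the unfolded protein response when it accumulates in the endoplasmic reticulum (ER). Embryonic stem cells are known for a high basal level of several chaperones.

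The medium of all cultures held LIF, which keeps stem cells self-renewing, and PD173074 at 250 nM, a compound that blocks FGF receptors. The 3 cultures called 4OHT received 5 µM actinomycin D, which blocks transcription, and 30 min later 250 nM 4-hydroxytamoxifen for 4 h. The 2 vehicle cultures received the same actinomycin D treatment and then ethanol for 4 h. The 3 untreated cultures are labelled untreated at 0 h, while actinomycin D is also named, in short form, in their titles. The series is titled for mRNA degradation regulated by Erk, a kinase downstream of FGF receptors, and the labels do not state on what protein 4-hydroxytamoxifen acts in these cells. Neither the strain nor the clone of the cells is given in the labels, and 3 biological replicates are stated for each condition, of which 2 are used here for vehicle.

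Short stretches of 7 promoters are shown first, because heat shock factor and the unfolded protein response act through elements of these kinds. The sequences are from RefSeq on build GRCm38.p6, written 5′ to 3′ on the gene's own strand, and capitals mark the element. The first 4 genes carry inverted GAA units, the core of a heat shock element. Hspa1a encodes the stress-inducible Hsp70, Hspb1 a small heat shock protein, Hsph1 an Hsp110-type nucleotide exchange factor and Hspe1 the lid of the mitochondrial chaperonin.
Hspa1a, chr17:34972238-34972275, minus strand: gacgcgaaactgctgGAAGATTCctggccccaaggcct
Hspb1, chr5:135887787-135887844, plus strand: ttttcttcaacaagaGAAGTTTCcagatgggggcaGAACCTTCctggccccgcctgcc
Hsph1, chr5:149636347-149636384, minus strand: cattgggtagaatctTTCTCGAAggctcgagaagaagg
Hspe1, chr1:55088053-55088082, plus strand: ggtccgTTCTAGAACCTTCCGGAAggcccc
The other 3 genes carry an ER stress response element, and encode the ER-resident Hsp70 (Hspa5, also BiP), the ER-resident Hsp90 (Hsp90b1, also Grp94) and an ER J-protein (Dnajc3). The element of Hsp90b1 is read on the opposite strand, and its window held 2 matches, of which the one nearer to the start is shown.
Hspa5, chr2:34772010-34772058, plus strand: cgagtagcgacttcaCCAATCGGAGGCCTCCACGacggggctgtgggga
Hsp90b1, chr10:86705518-86705566, minus strand: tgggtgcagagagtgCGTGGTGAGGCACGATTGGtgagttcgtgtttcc
Dnajc3, chr14:118937812-118937860, plus strand: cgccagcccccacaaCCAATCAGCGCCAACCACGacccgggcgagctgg

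Levels are log2 values of the deposited processed signal, relative to the 75th percentile of the same array. That percentile was lower after actinomycin D, at 180 to 209 intensity units on the 4OHT arrays and 166 and 205 on the vehicle arrays, against 333 to 457 on the untreated arrays. A difference near 0 on this scale is therefore a difference close to that of the 75th percentile itself. A second scale sets each array to its spike-in control probes, and it lowers every vehicle against untreated difference by 1.28, every 4OHT against vehicle difference by 0.30 and every 4OHT against untreated difference by 1.58 on the log2 scale. A fixed 100 ng of RNA was labelled per sample, so the spike-in scale measures signal for a given mass of RNA, not for a given number of cells. The single spike-in probes differed between 4OHT and untreated by 0.09 to 0.79, so the second scale carries an error of its own. The 4OHT arrays were on another slide than the vehicle and untreated arrays, and 4OHT and slide cannot be told apart. Vehicle and untreated arrays shared the other slide, each group in a row of its own, and row and treatment cannot be told apart either. All 6 embryonic stem cell markers were measured on every array. Of 6 fibroblast markers, Col3a1 was not measured, Col1a1, Col1a2, Pdgfrb and Twist1 were below 0 on every array, and Thy1, which is not specific to fibroblasts, had levels from 1.08 to 1.92.

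After actinomycin D and vehicle, the heat-inducible genes split relative to the 75th percentile. Dnajb1 and Hspa1a were lower than in untreated cells by 12.8-fold and 3.20-fold, whereas Hsp90aa1, Hspb1 and Dnaja1 were 2.23-fold, 2.19-fold and 1.46-fold higher relative to the 75th percentile. The 27 genes listed as constitutive moved more alike, with 24 called higher (41.5% of all features tested were) and 0 lower (15.9%) on that scale. For the same 27, quantile normalization gave 4 higher (26.1% of all features) and 4 lower (17.3%). The spike-in scale gave them 0 higher (0.112%) and 8 lower (65.1%). On the spike-in scale none of the 74 measured genes was called higher (0.112% of all features), and 46 were called lower (65.1%). In whole cultures, fewer cells that hold an RNA and less of it per cell cannot be told apart. The question of this comparison is how much of each RNA was left after transcription had been blocked.

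Of the 74 measured genes, 41 were called higher in vehicle than in untreated cells beside 41.5% of all features tested. A further 9 were called lower beside 15.9% of all features, and 24 were not called. Of the 68 well above background on all arrays, 41 were called higher and 7 lower. Calls are limma adjusted p-values under 0.05, adjusted over 28491 features. Beside the 68, a separate fit of only the features well above background on all arrays called 11929 of 22968 higher and 3419 lower. The median difference of the 74 was 0.48, beside 0.40 for all features. It was −0.80 beside −0.88 on the spike-in scale, and 0.08 beside 0.21 with quantile normalization. With quantile normalization 12 were called higher (26.1% of all features) and 17 lower (17.3% of all features), so the split between higher and lower depended on the scaling.

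Dnajb1, the J-protein that starts the Hsp70 cycle on many cytosolic clients, showed the largest fall of the 68 genes well above background on all 8 arrays. Its level was 1.19, 0.97 and 1.11 in 4OHT cells, 1.70 and 1.46 in vehicle cells, and 5.24, 5.32 and 5.22 in untreated cells. The untreated arrays lay far above all others and the replicates of each group lay close together. The difference between vehicle and untreated was −3.68 (SE 0.12, adjusted p = 5.15e-06), which ranked 164 from the lowest of all features. On the spike-in scale the Dnajb1 signal in vehicle cells was 3.21% of that in untreated cells.

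Hspa1a stood low on the array in every group. Its level was −3.64, −3.96 and −4.30 with 4OHT, −3.52 and −3.46 with vehicle, and −1.97, −1.65 and −1.81 untreated, and 1 of the 3 4OHT arrays was not well above background. No vehicle array overlapped the untreated arrays, and the difference was −1.68 (SE 0.20, adjusted p = 0.000507). With normexp background correction, which offsets dim signals, Hspa1a differed by −0.38 (adjusted p = 0.00444). Its spike-in level in vehicle cells was 12.9% of untreated. No mapped probe stands for Hspa1b, a near-identical copy of Hspa1a, so the Hspa1a probe may read both genes.

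The other heat-inducible genes did not follow these 2. Hsp90aa1, the stress-responsive cytosolic Hsp90, had levels of 8.87, 9.004 and 8.95 with 4OHT, 8.92 and 9.18 with vehicle, and 8.11, 7.79 and 7.79 untreated. Every vehicle array lay above every untreated array, by 1.16 on average (SE 0.14, adjusted p = 0.000558), while the spike-in difference was −0.12 and was not called. Hspb1, a small heat shock protein that holds unfolded proteins in a soluble state, had 9.26, 9.49 and 9.42 with 4OHT, 9.56 and 9.52 with vehicle, and 8.53, 8.35 and 8.35 untreated. Its difference between vehicle and untreated was 1.13 (SE 0.11, adjusted p = 0.000305), and −0.14 on the spike-in scale. On that scale vehicle cells had 91.9% of the untreated Hsp90aa1 signal and 90.5% of the Hspb1 signal. With quantile normalization Hsp90aa1 differed by 0.07 and Hspb1 by 0.02, and neither was called.

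Dnaja1, another J-protein partner of cytosolic Hsp70, was called higher by 0.54 (SE 0.11, adjusted p = 0.00606), but lower by the spike-in scale (−0.74) and by quantile normalization (−0.40). Hsph1, the Hsp110-type exchange factor, had levels of 5.80, 6.02 and 5.996 with 4OHT, 5.42 and 5.28 with vehicle, and 5.30, 4.96 and 5.12 untreated. Its vehicle and untreated arrays overlapped, and the difference of 0.22 was not called (SE 0.13, adjusted p = 0.197). Hsph1 was called lower with quantile normalization (−0.38, adjusted p = 0.0334) and on the spike-in scale (−1.06, adjusted p = 0.0019). Dnajb4, a J-protein of the same type as Dnajb1, stood near the detection limit, and its untreated arrays ranged from −4.46 to −3.41. Its difference of 0.21 (SE 0.31, adjusted p = 0.591) was not called, but became 0.54 (adjusted p = 0.0284) without untreated replicate 2, the highest of the 3.

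**Figure D1:**
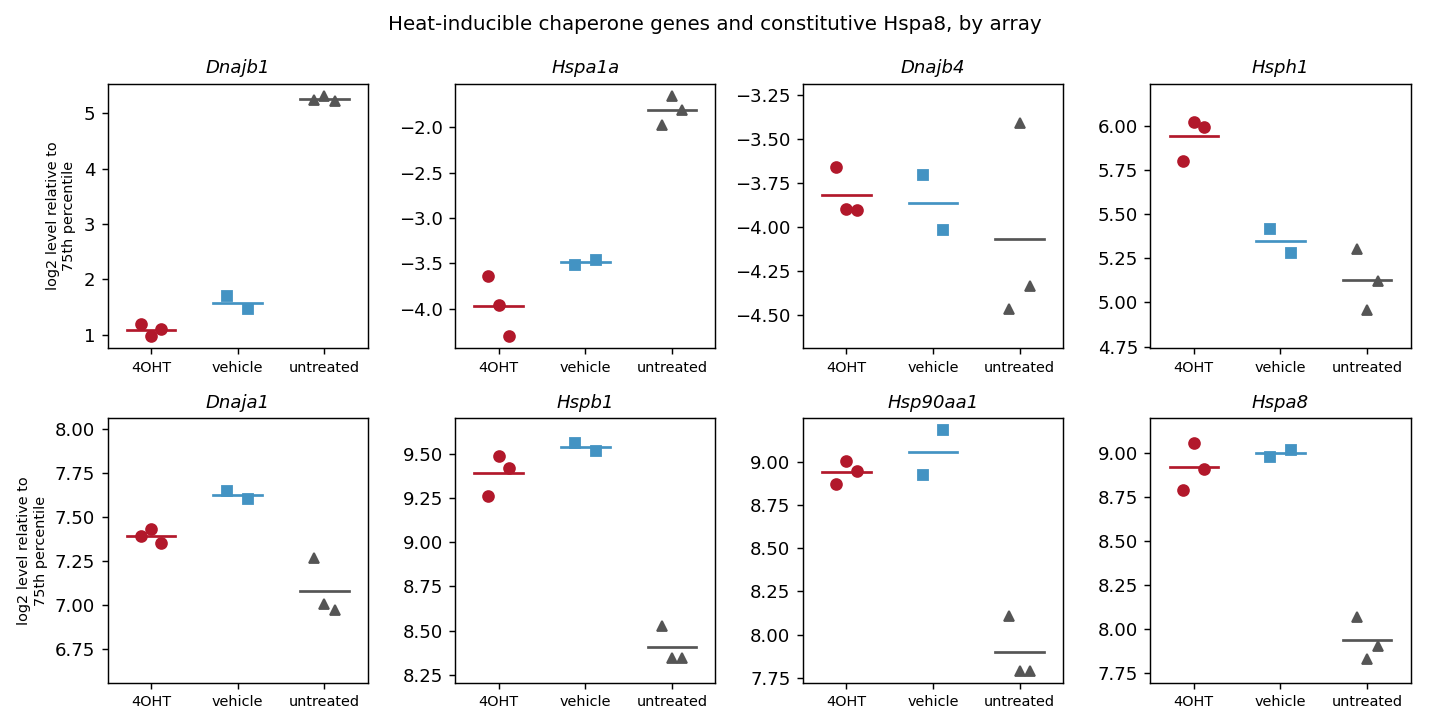
Log2 level relative to the array's 75th percentile (y axis, a separate range per gene) on each 4OHT, vehicle and untreated array, for the 7 measured heat-inducible genes and constitutive Hspa8. Points are arrays and horizontal lines are group means. The untreated arrays lie highest for Dnajb1 and Hspa1a and lowest for Hsp90aa1, Hspb1, Dnaja1 and Hspa8.

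The constitutive cytosolic chaperones were called higher relative to the 75th percentile in 11 of 12 cases (41.5% of all features were). Their median difference was 0.77, beside 0.40 for all features, and with quantile normalization 0.10 beside 0.21. Hspa8, the constitutive Hsp70 that also uncoats clathrin vesicles, had levels of 8.79, 9.06 and 8.91 with 4OHT, 8.97 and 9.02 with vehicle, and 8.07, 7.83 and 7.91 untreated. All vehicle arrays lay above the untreated ones, and the difference was 1.06 (SE 0.12, adjusted p = 0.000438), against −0.22 on the spike-in scale and −0.03 with quantile normalization. Hsp90ab1, the constitutive cytosolic Hsp90, differed by 1.09 (SE 0.14, adjusted p = 0.00062), and Dnajc7, a J-protein that passes clients between Hsp70 and Hsp90, by 1.09 (SE 0.13, adjusted p = 0.000487). Both were at −0.19 and uncalled on the spike-in scale. The exception of the 12 was Dnaja2, a J-protein close to Dnaja1, at −0.04 (SE 0.08, adjusted p = 0.73), with −1.31 on the spike-in scale, where it was called lower.

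The subunits of the CCT chaperonin formed the most even group. All 7 were called higher (41.5% of all features were), with differences from 0.63 for Cct6a to 1.15 for Cct5. Their median was 0.98, beside 0.40 for all features, and with quantile normalization 0.09 beside 0.21. Cct5 had levels of 8.38, 8.32 and 8.34 with 4OHT, 8.54 and 8.62 with vehicle, and 7.54, 7.34 and 7.40 untreated, without overlap between vehicle and untreated (SE of the difference 0.10, adjusted p = 0.000207). With spike-ins the same 7 differences turned to values from −0.65 to −0.13, with 1 called lower, and with quantile normalization they lay between −0.05 and 0.28, with 0 called. Tcp1, the remaining subunit of the ring, which the naming rule leaves out, differed by 0.84 (SE 0.13, adjusted p = 0.00163) and by −0.44 on the spike-in scale.

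Of the 8 mitochondrial chaperone genes, 6 were called higher (41.5% of all features) and 0 lower (15.9%). Their median was 0.88, beside 0.40 for all features, and with quantile normalization 0.07 beside 0.21. Hspd1 and Hspe1, the barrel and the lid of the mitochondrial chaperonin, differed by 0.96 (SE 0.15, adjusted p = 0.00154) and 1.06 (SE 0.10, adjusted p = 0.000295). They are transcribed in opposite directions from a shared promoter, and the capitals printed above for Hspe1, a run of alternating units that holds 2 overlapping cores of 3 units, lie in windows of both genes. Their spike-in differences were −0.32 and −0.22, neither called, which is 80.3% and 86.1% of untreated. Dnajc19, a J-protein of the import motor at the inner membrane, differed by 1.13 (SE 0.11, adjusted p = 0.000313), and remained called higher with quantile normalization at 0.57 (adjusted p = 0.00549), but not on the spike-in scale at −0.15. Dnaja3 (0.08) and Dnajc30 (−0.25) were not called, but both were called lower with quantile normalization (−0.41 and −0.47) and on the spike-in scale (−1.20 and −1.53).

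The 10 ER genes went both ways, with 3 called higher (41.5% of all features), 3 lower (15.9%) and 4 uncalled. Their median was 0.19, beside 0.40 for all features. The luminal chaperones with a stress response element stood at 0.71 for Hsp90b1 (SE 0.11, adjusted p = 0.00165), 0.17 for Hspa5 (SE 0.13, adjusted p = 0.316) and 0.22 for Dnajc3 (SE 0.15, adjusted p = 0.233). All 3 were called lower on the spike-in scale, where vehicle cells had 67.5% of the untreated Hsp90b1 signal and 46.3% of the Hspa5 signal.

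The 3 genes that fell were J-proteins of the ER. Dnajb9, an inducible J-protein of the lumen (ERdj4), had levels of −1.09, −1.65 and −1.57 with 4OHT, −1.48 and −1.91 with vehicle, and 0.78, 1.04 and 0.70 untreated. The untreated arrays lay above all others, and the difference was −2.53 (SE 0.22, adjusted p = 0.000212). A second Dnajb9 probe, well above background on 6 of the 8 arrays, gave only −0.52, so the size of this fall rests on the brighter probe. Normexp gave −1.72 for Dnajb9 and the mean of its probes −1.53, both called. Dnajc1, a membrane J-protein that reaches BiP in the lumen and the ribosome outside, had −0.34, −0.42 and −0.38 with 4OHT, −1.27 and −1.16 with vehicle, and 0.58, 0.47 and 0.62 untreated. No groups of Dnajc1 overlapped, and vehicle was lower than untreated by −1.77 (SE 0.09, adjusted p = 3.37e-05). Dnajb12, an ER membrane J-protein with its J domain in the cytosol, was at −1.36 (SE 0.13, adjusted p = 0.000273), whereas its relative Dnajb14 was called higher, at 0.50 (SE 0.09, adjusted p = 0.00351), but lower on the spike-in scale.

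Of the 16 genes listed as tissue-restricted, 9 were measured, with 3 called higher and 2 lower, beside 41.5% and 15.9% of all features. Dnajb3, a J-protein known from spermatogenic cells in the mouse, had levels of −6.84, −6.64 and −6.38 with 4OHT, −4.43 and −5.45 with vehicle, and −1.22, −1.22 and −1.55 untreated. It was well above background on all 3 untreated arrays, on 1 of 2 vehicle arrays and on 0 of 3 4OHT arrays, so it entered the tests through the untreated group and had to differ from it. No test against untreated is given for it, although it is among the lower calls counted above. The other fall in this list was Dnajc22 at −1.07 (SE 0.15, adjusted p = 0.00106), a gene named after its value was seen. Of the 21 genes in no list, 8 were called higher and 2 lower, beside the same 41.5% and 15.9% of all features. The lower ones were the J-protein genes Dnajc25 at −0.90 (SE 0.18, adjusted p = 0.00513) and Dnajc16 at −0.57 (SE 0.13, adjusted p = 0.00893), the second named after its value was seen, and the Dnajc16 call was lost without vehicle replicate 1 (−0.45, adjusted p = 0.0583). Dnajc5, a J-protein of secretory vesicles, was at −0.04 by its brightest probe and at 0.74 and 1.01 by its other probes, so no direction is given for it.

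**Figure D2:**
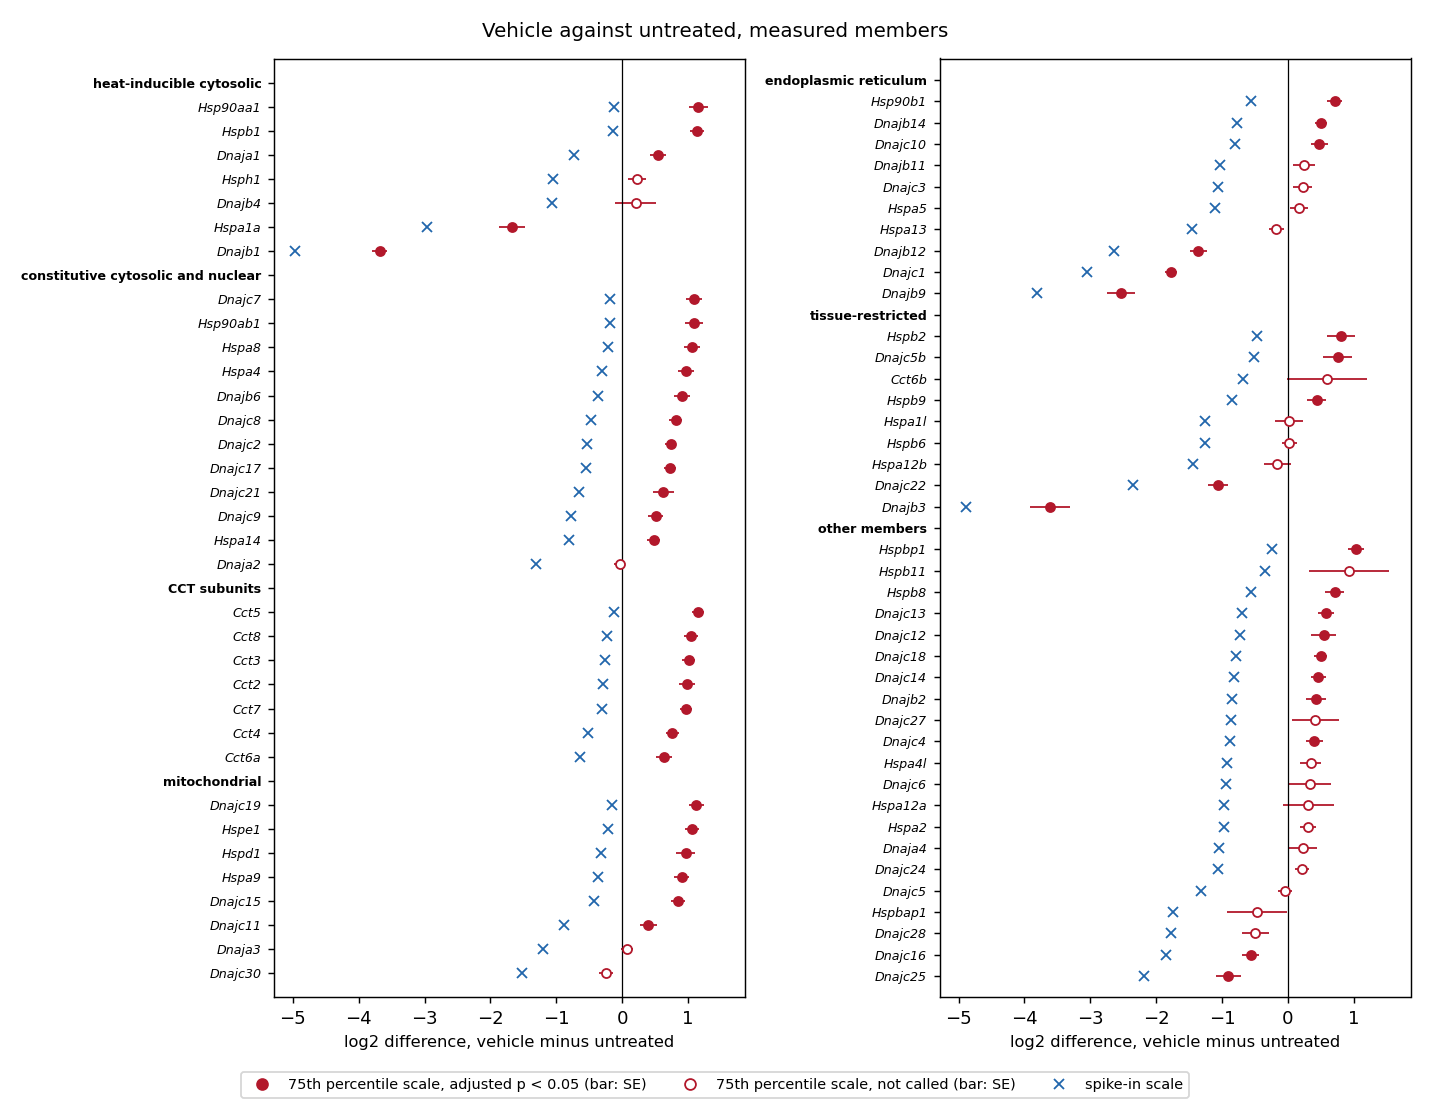
Log2 difference, vehicle minus untreated, of the 74 measured genes by list (x axis). Circles with SE bars are on the 75th percentile scale, filled where limma's adjusted p is under 0.05, and crosses are on the spike-in scale. The constitutive, CCT and mitochondrial circles lie between −0.25 and 1.15, Dnajb1, Dnajb3, Dnajb9, Dnajc1, Hspa1a and Dnajb12 lie at −1.36 or below, and no cross lies above 0.

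Co-chaperones and regulators that work with these proteins were read from a separate list. Of 42 genes listed outside the naming rule, 41 were measured, with 32 called higher, 3 lower and 6 uncalled, beside 41.5% and 15.9% of all features. The same 41 had 16 higher and 5 lower with quantile normalization, and 0 higher and 17 lower on the spike-in scale. The highest were Ptges3, the Hsp90 co-chaperone p23, at 1.25 (SE 0.11, adjusted p = 0.000256), the ER disulfide isomerase Pdia4 at 1.21 and the kinase-loading Hsp90 co-chaperone Cdc37 at 1.06. None of the 41 was above 0 on the spike-in scale. Bag5, a nucleotide exchange factor of Hsp70, had levels of −1.93, −1.84 and −1.83 with 4OHT, −2.37 and −2.32 with vehicle, and 2.27, 2.09 and 2.30 untreated. The vehicle and untreated arrays were farther apart than those of Dnajb1, by −4.56 (SE 0.10, adjusted p = 3.66e-06). Bag5 has 2 probes on the array and only 1 is reported, so the size of this fall rests on 1 probe. The other fallers were also nucleotide exchange factors, the mitochondrial Grpel2 at −2.05 (SE 0.11, adjusted p = 3.6e-05) and Bag4 at −0.92 (SE 0.10, adjusted p = 0.000372). Exchange factors did not fall as a class relative to the 75th percentile. Bag1 at 1.001, Grpel1 at 0.35 and Hspbp1, which the naming rule includes, at 1.03 were called higher. Bag2 was uncalled at −0.09. On the spike-in scale Bag1 (−0.28) and Hspbp1 (−0.25) were uncalled, and Grpel1 was called lower at −0.93. Of the heat shock factors, Hsf1 was called higher at 0.47 (SE 0.13, adjusted p = 0.0183) but lower on the spike-in scale at −0.81, and Hsf2 was uncalled at −0.21. Bag3, an exchange factor that is itself heat-inducible, was uncalled at −0.06 (SE 0.16, adjusted p = 0.775).

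Between 4OHT and vehicle, 4 of the 74 chaperone genes were called. Dnajc1 and Dnajc25 were called higher in 4OHT cells and Dnaja2 and Dnajb3 lower, and the other 70 were not called. By limma, 17 of the 74 had an unadjusted p under 0.05. The share of all features under that unadjusted threshold is not given, so no excess is read from this count or from those below. The 2 higher calls stand beside 0.923% of all features called higher, and the 2 lower calls beside 2.58% called lower. The spike-in scale gave 0 higher calls (0.133% of all features) and 1 lower call (4.05%), and quantile normalization 1 higher (0.734%) and 2 lower (1.7%). The median difference was −0.00, beside −0.05 for all features. With 3 arrays against 2, the smallest difference called was that of Dnaja2, at −0.56. This comparison asks whether 4-hydroxytamoxifen changed what remained of each RNA.

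Dnajc1 levels are given above, and the 4OHT arrays lay between the vehicle and the untreated arrays. The difference between 4OHT and vehicle was 0.84 (SE 0.09, adjusted p = 0.0103), 0.54 on the spike-in scale (adjusted p = 0.186) and 0.86 with quantile normalization (adjusted p = 0.0115). Without vehicle replicate 1 it was 0.78 (adjusted p = 0.0614), and it was also uncalled when only the groups compared were fitted (adjusted p = 0.0602). Dnajc25 had −1.03, −0.63 and −0.61 with 4OHT, −1.81 and −1.52 with vehicle, and −0.60, −0.98 and −0.71 untreated. The 4OHT arrays lay above the vehicle arrays and overlapped the untreated ones, with a difference of 0.91 from vehicle (SE 0.18, adjusted p = 0.0496). That call was lost in 7 of the 8 fits that left out 1 array, where the adjusted p ranged from 0.0487 to 0.222.

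Dnaja2 had 3.76, 3.75 and 3.81 with 4OHT, 4.35 and 4.32 with vehicle, and 4.40, 4.33 and 4.38 untreated. The 4OHT arrays were the low ones here, while vehicle and untreated arrays overlapped. The difference from vehicle was −0.56 (SE 0.08, adjusted p = 0.0218), and a second probe gave −0.46. With spike-ins it was −0.86 (adjusted p = 0.0523), and leaving out 1 array at a time gave adjusted p-values from 0.0399 to 0.104, with the call lost in 6 of 8 fits. Dnajb3 was not well above background on any 4OHT array, nor on 1 of the 2 vehicle arrays, so no fold is given for it (adjusted p = 0.0358). Its call was lost with normexp (adjusted p = 0.455), with no filter (0.114) and with only the groups compared (0.118). It was also lost whenever 1 untreated or 4OHT array was left out (adjusted p from 0.0584 to 0.109). The call remained on the spike-in scale (0.00787) and with quantile normalization (0.0126).

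**Figure D3:**
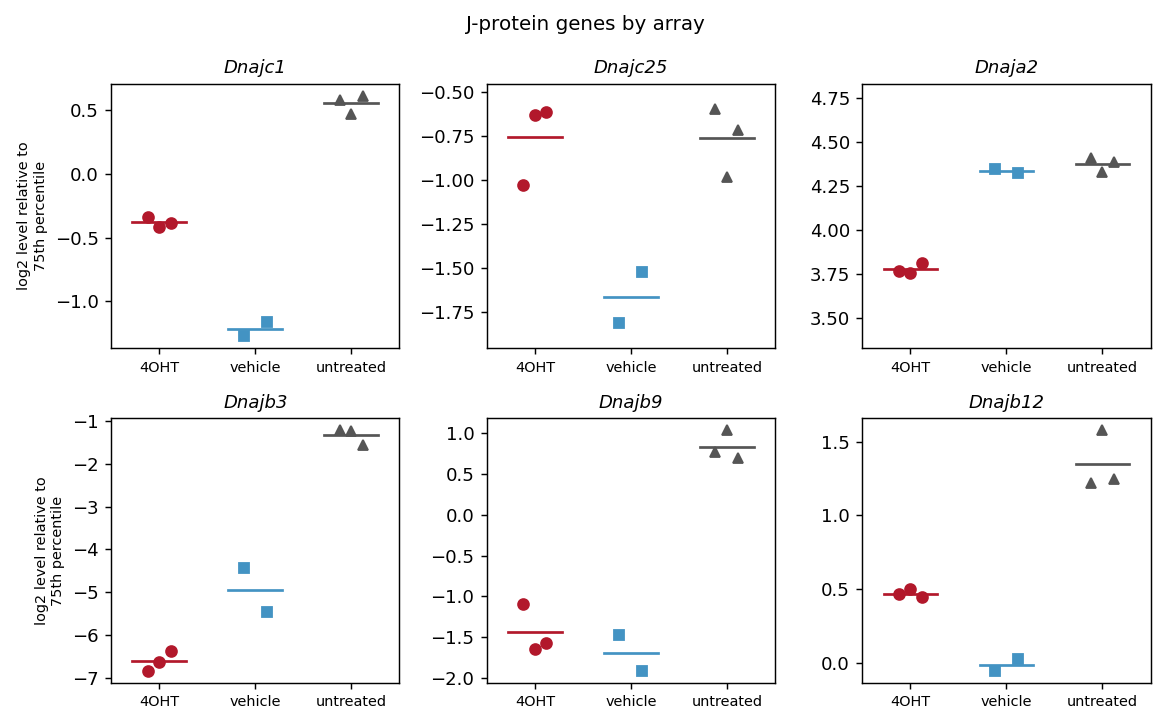
Log2 level relative to the array's 75th percentile (y axis, a separate range per gene) on each 4OHT, vehicle and untreated array for 6 J-protein genes. Points are arrays and lines are group means. Dnajc1, Dnajc25 and Dnajb12 have their lowest arrays with vehicle, Dnaja2 and Dnajb3 with 4OHT.

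None of the 7 heat-inducible genes was called between 4OHT and vehicle by limma, and 3 had an unadjusted p under 0.05. Their differences ran from −0.49 for Dnajb1 (SE 0.12, adjusted p = 0.0753) to 0.59 for Hsph1 (SE 0.13, adjusted p = 0.0686), and neither gene's arrays overlapped between the groups. A second Hsph1 probe gave 0.46. Both genes were called with trended and robust variance moderation, at adjusted p-values of 0.0285 for Dnajb1 and 0.0228 for Hsph1. Hspa1a was at −0.48 (SE 0.20, adjusted p = 0.253) and Hsp90aa1 at −0.11 (SE 0.14, adjusted p = 0.733). Of the 27 constitutive genes 1 was called lower, Dnaja2, and their median was −0.09. Dnajc30, a mitochondrial J-protein, was at −0.45 (SE 0.10, adjusted p = 0.0653), and was called lower with normexp (adjusted p = 0.0202), the filter over all arrays (0.0458) and trended and robust moderation (0.0246).

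By their brightest probes, the 10 ER genes were all above 0 in 4OHT relative to vehicle. They ran from 0.02 for Hsp90b1 and Hspa5 to 0.84 for Dnajc1. Their median was 0.21, beside −0.05 for all features, and 1 was called. The share of all features above 0 is not given, so no excess is read from this count. Second probes gave −0.011 for Dnajb9 and for Hspa13, 0.44 for Dnajc10 and 0.82 for Dnajb11. On the spike-in scale 4 of the 10 were above 0 and the median was −0.10, beside −0.36 for all features. After Dnajc1 the next were Dnajb11, a luminal J-protein, at 0.57 (SE 0.16, adjusted p = 0.116) and Dnajb12 at 0.48 (SE 0.13, adjusted p = 0.1). Among the 41 co-chaperones and regulators 0 were called higher and 0 lower by limma, 5 had an unadjusted p under 0.05, and the median was 0.02.

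**Figure D4:**
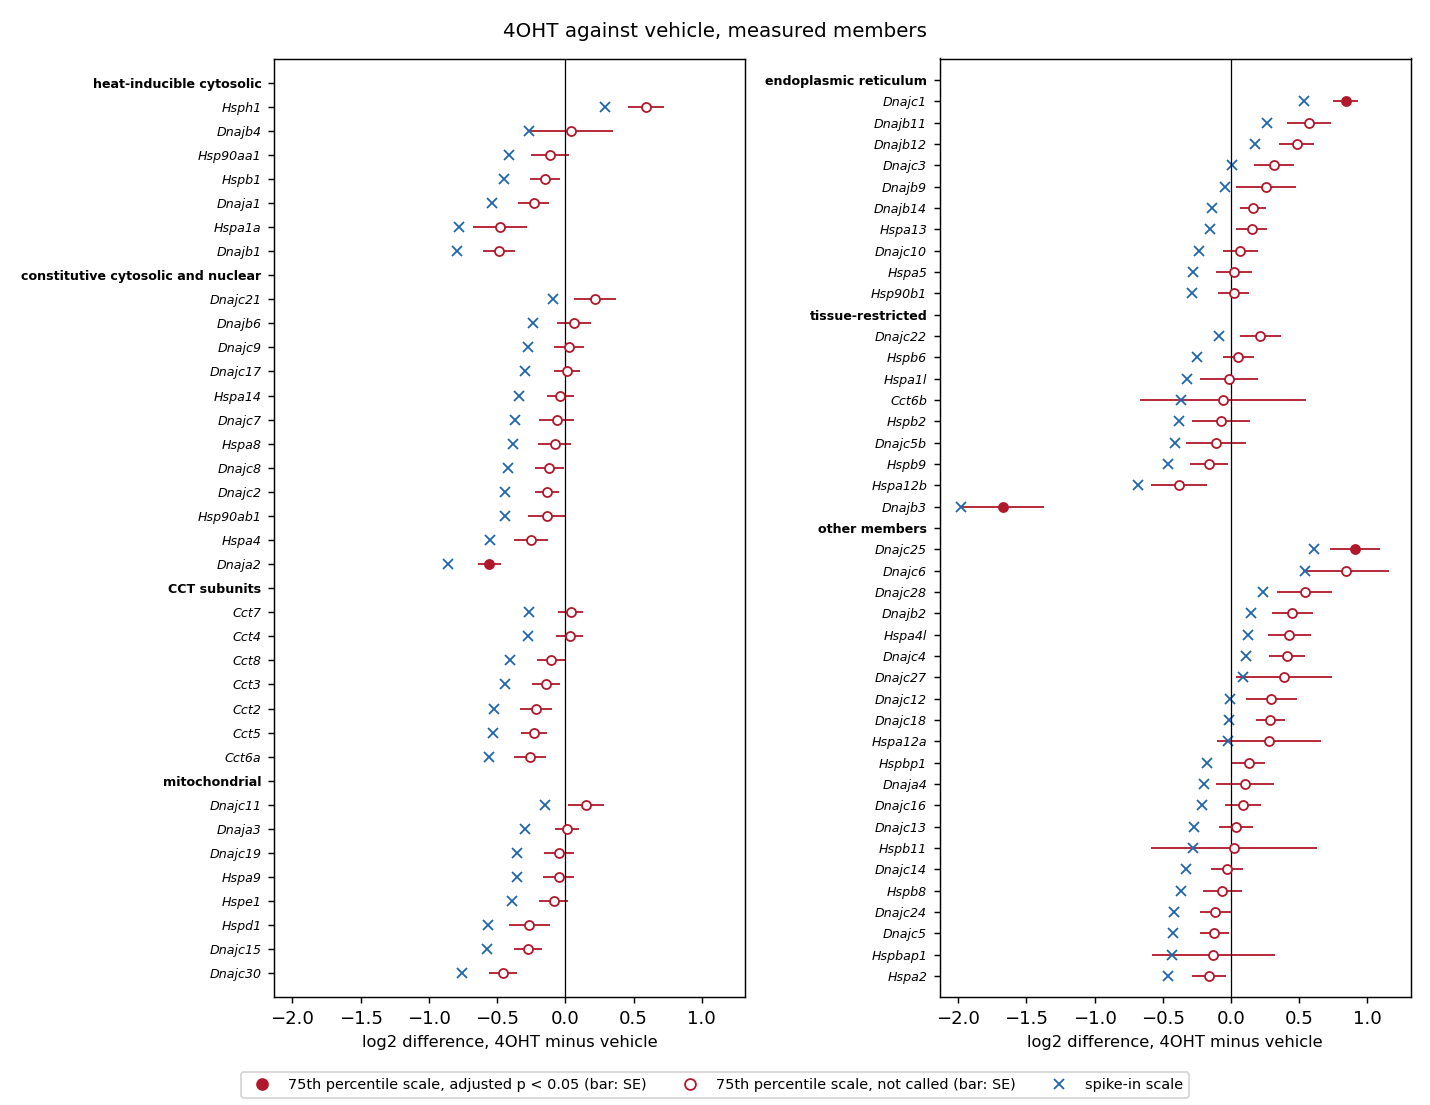
Log2 difference, 4OHT minus vehicle, of the 74 measured genes by list (x axis). Circles with SE bars are on the 75th percentile scale, filled where limma's adjusted p is under 0.05, and crosses are on the spike-in scale. The 4 filled circles are Dnajc1, Dnajc25, Dnaja2 and Dnajb3, the last not well above background on any 4OHT array.

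Set against untreated cells, the 4OHT cells had heat-inducible genes on both sides of 0. The untreated arrays are shared with the comparison of vehicle and untreated, so the calls of both are not independent. Dnajb1 was lower by −4.17 (SE 0.10, adjusted p = 1.31e-06) and Hspa1a by −2.16 (SE 0.18, adjusted p = 0.000107, and −0.47 with normexp), whereas Hsp90aa1 was higher by 1.04 (SE 0.13, adjusted p = 0.000412), Hspb1 by 0.98 and Hsph1 by 0.81 (SE 0.12, adjusted p = 0.00103). Those 3 rises are relative to the 75th percentile. On the spike-in scale they were −0.54, −0.60 and −0.77 and were called lower, and with quantile normalization, which called 30.1% of all features higher, they were 0.08, 0.04 and 0.20 and uncalled. Spike-in Dnajb1 signal in 4OHT cells was 1.86% of untreated.

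Of the 74 genes, 45 were called higher in 4OHT than in untreated cells (41.0% of all features were) and 11 lower (18.7% of all features), with 18 uncalled. Of the 68 well above background on all arrays, 45 were called higher and 8 lower. The fit of only the features well above background on all arrays called 11894 of 22968 higher and 3838 lower. On the spike-in scale 0 of the 74 were called higher and 69 lower, beside 93.4% of all features called lower. By list, the heat-inducible genes had 4 higher and 2 lower, the 27 constitutive genes 24 higher and 2 lower, and the ER genes 5 higher and 3 lower. The medians of these lists were 0.31, 0.76 and 0.36, and on the spike-in scale −1.27, −0.82 and −1.22, with all features at 0.31 and −1.27. Quantile normalization called 22 of the 74 higher (30.1% of all features) and 15 lower (19.4%). By list it gave 0 higher and 3 lower heat-inducible, 6 and 4 constitutive, and 3 and 4 ER genes. The medians were then 0.04, 0.07 and −0.08, all below the 0.18 of all features. The 2 constitutive genes called lower were Dnaja2 at −0.60 (SE 0.07, adjusted p = 0.000507), whose second probe gave −0.25, and Dnajc30 at −0.70 (SE 0.09, adjusted p = 0.000571).

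The largest rises among the 74 in this comparison were Dnajc6, the clathrin-uncoating J-protein auxilin, at 1.17 (SE 0.28, adjusted p = 0.00963), Hspbp1, a nucleotide exchange factor of Hsp70, at 1.16 (SE 0.11, adjusted p = 0.000154), and Dnajc19 at 1.08 (SE 0.10, adjusted p = 0.000162). Dnajc6 and Hspbp1 were not called on the spike-in scale, at −0.41 and −0.42, and Dnajc19 was called lower there, at −0.50. Dnajb3 was at least 8.77-fold lower in 4OHT than in untreated cells, a bound because no 4OHT array was well above background, and a description because it was measured through the untreated group. Dnajb9 differed by −2.28 (SE 0.19, adjusted p = 0.000122), Dnajc1 by −0.93 (SE 0.08, adjusted p = 0.000147) and Dnajb12 by −0.88 (SE 0.11, adjusted p = 0.000596). Dnaja1 was called higher by 0.31 (SE 0.10, adjusted p = 0.0349), and this call was lost in 5 of the 8 fits that left out 1 array and turned to −0.54 with quantile normalization. Among the 41 co-chaperones and regulators, 33 were called higher (41.0% of all features) and 3 lower (18.7%). The rises were led by Pdia4 at 1.33, the exchange factor Bag1 at 1.29 and Ptges3 at 1.24. The falls were Bag5 at −4.08, Grpel2 at −1.89 and Bag4 at −1.38. On the spike-in scale 0 of the 41 were called higher (0.102% of all features) and 36 lower (93.4%). Quantile normalization gave 24 higher (30.1%) and 5 lower (19.4%).

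Inducible and constitutive genes can be set side by side over their differences. Between vehicle and untreated, the 7 heat-inducible genes ran from −3.68 to 1.16 and the 27 constitutive genes from −0.25 to 1.15. The medians were 0.22 and 0.91, and on the spike-in scale −1.06 and −0.37, with all features at 0.40 and −0.88. The upper ends of both lists thus coincided. Dnajb1 and Hspa1a lay below every constitutive gene, and Dnajb4, Hsph1 and Dnaja1 also lay below the constitutive median. Between 4OHT and vehicle the medians were −0.15 and −0.09, with all features at −0.05. These lists were chosen with earlier results of the same arrays known, and no test was made over them.

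The elements shown at the start were searched in all mouse promoter windows. A heat shock core, GAANNTTC or TTCNNGAA on either strand, lay within the 300 bases around the start (250 before to 50 after) of 17.0% of 27025 mouse genes and of 19 of the 66 chaperone genes with a window. The 16 measured ones included 10 called higher in vehicle than in untreated, 1 called lower, Hspa1a, and 5 uncalled, beside 41 higher and 9 lower of all 74 measured genes and 41.5% and 15.9% of all features. A core of 3 alternating GAA and TTC units, each spaced by any 2 bases, which contains the shorter motif, lay in 0.662% of genes and in 4 chaperone genes, Dnajb6, Hspd1, Hspe1 and Hsph1, of which 3 were called higher and Hsph1 was not called. The Hsph1 core of 3 units lies after the start site, outside the stretch shown, whose capitals mark a single short core. The window of Dnajb1 held no match to these letters. The ER stress response element, CCAAT and CCACG with any 9 bases between them, on either strand, lay in 0.137% of genes and in Dnajc3, Hsp90b1 and Hspa5. A match is a description of the letters in the window.

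The 7 genes not measured were Cct8l1, Dnajb13, Dnajb7, Dnajb8, Dnajc5g, Hspb3 and Hspb7, and none was well above background on more than 2 of the 8 arrays. Of the measured genes, 68 were well above background on all 8 arrays, and Dnajb3 and Hspbap1 passed only through the untreated group. Hspbap1 had untreated levels from −3.98 to −3.67 and was uncalled in every comparison on the 75th percentile scale.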

How the data were processed

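RNA of 8 cultures was hybridised to 8 single-colour Agilent arrays. The deposited intensity used is the green-channel processed signal, made with Agilent Feature Extraction 11.0.1.1, background-subtracted on a linear scale, per the file headers, although the labels name Cy5. The authors' deposited value table equals it within rounding (largest relative difference 0.00497 on the 8 arrays) and was an alternative. From the deposited intensity, log2 values minus each array's 75th percentile over the 59305 non-control spots were computed. Accessions were named through RefSeq (GRCm38.p6); the file headers name mm9. Probes were kept (33008) if all arrays of any group read them well above background, and each symbol was represented by its brightest probe, which left 28491 features. Of the 466 probes lacking a value on an array, none was fitted.

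Groups were compared with limma 3.58.1 in R 4.3.3 (lmFit and eBayes, 1 fit of 3 groups, 5 residual degrees of freedom), with two-sided p-values adjusted by Benjamini-Hochberg over all features and called under 0.05. P-values measure the spread between these arrays, whose number limits the precision. In the vehicle group 2 arrays were available. The "at least" fold sets the brighter group's mean against, per 4OHT array, its dimmest signal well above background or, if higher, the probe's own. Spike-in scaling used the mean of 8 of the 10 Agilent E1A probes. The script was tested on simulated data. The genes and lists were chosen with earlier results of these data known. The text names genes of the 5 cytosolic, CCT, mitochondrial and ER lists, the 5 largest called rises and falls per comparison, every gene called between 4OHT and vehicle, and Tcp1, Hsf1, Hsf2, Bag3 and the 3 largest called rises and falls among the co-chaperones. Alternatives were normexp background (offset 50), quantile and spike-in scaling, the value table, dropping the filter, a filter over all arrays, the mean of a gene's probes, only the groups compared (for vehicle against untreated, the fit within the slide), a replicate block, trended and robust eBayes, and leaving out each array.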

Additional observations from a re-analysis of the deposited data

How the results depend on the processing

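The 4 calls between 4OHT and vehicle were the least stable result. Counts of 0 higher and 0 lower came from no filter, from fitting only the groups compared and from the replicate block, 0 higher and 1 lower from spike-in scaling, 1 higher from quantile normalization and from the mean of a gene's probes, and 4 lower from trended and robust moderation. Without vehicle replicate 1 none of the 4 was called. Leaving out 1 array gave 33 to 41 higher and 8 to 10 lower for vehicle against untreated, 43 to 45 and 10 to 11 for 4OHT against untreated, and 0 to 2 and 0 to 1 for 4OHT against vehicle. Same-numbered arrays deviated together with correlations from −0.19 to 0.36, so the numbers were not taken as pairs.

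Scaling set the direction of most rises. Spike-in scaling gave 0 higher and 46 lower for vehicle against untreated and 0 and 69 for 4OHT against untreated, and quantile normalization 12 and 17, and 22 higher. Over all features, calls for vehicle against untreated were 11831 higher and 4539 lower, against 19425 and 3488 with normexp, 7425 and 4917 with quantile normalization and 32 and 18534 with spike-ins. For 4OHT against untreated they were 11692 and 5342, 20018 and 3703, 8570 and 5529, and 29 and 26605. For 4OHT against vehicle they were 263 and 734, against 25 and 76 with no filter, 18 and 48 with only the groups compared and 8 and 12 with the replicate block.

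With spike-ins the vehicle against untreated differences turned to −0.30 for Cct2, −0.27 for Cct3, −0.52 for Cct4, −0.13 for Cct5, −0.65 for Cct6a, −0.31 for Cct7, −0.23 for Cct8, −0.74 for Dnaja1, −1.20 for Dnaja3, −1.07 for Dnajb4, −0.15 for Dnajc19, −0.19 for Dnajc7, −0.12 for Hsp90aa1, −0.19 for Hsp90ab1, −0.57 for Hsp90b1, −0.31 for Hspa4, −1.11 for Hspa5, −0.22 for Hspa8, −0.37 for Hspa9, −0.14 for Hspb1, −0.32 for Hspd1, −0.22 for Hspe1 and −1.06 for Hsph1. Those of 4OHT against untreated turned to −1.27 for Dnaja1, −0.77 for Dnajb11, −0.50 for Dnajc19, −0.41 for Dnajc6, −0.54 for Hsp90aa1, −1.39 for Hspa5, −0.60 for Hspb1, −0.42 for Hspbp1 and −0.77 for Hsph1. The spike-in scale shifts every gene alike. With quantile normalization the first set turned to −0.050 for Cct2, −0.40 for Dnaja1, −0.41 for Dnaja3, −0.055 for Hsp90ab1, −0.16 for Hsp90b1, −0.019 for Hspa4, −0.65 for Hspa5, −0.031 for Hspa8, −0.068 for Hspd1 and −0.38 for Hsph1, and the second to −0.54 for Dnaja1 and −0.58 for Hspa5. Normexp gave −0.044 for Dnaja3 and −0.064 for Hspa5 in vehicle and −0.0099 for Hspa5 in 4OHT, all against untreated, and the mean of probes gave 0.083 for Dnaja2 in vehicle. The cause was not tested.

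The median level of a list per array follows whichever gene lies in the middle. For the heat-inducible list its difference was 0.07 for vehicle against untreated, 0.59 for 4OHT against vehicle and 0.66 between 4OHT and untreated, and became 0.54, −0.23 and 0.31 with a filter over all arrays, which drops Hspa1a and Dnajb4. It was −1.58, −0.10 and −1.68 with the mean of probes, and −1.21, 0.29 and −0.92 with spike-ins. Quantile normalization gave −0.54 for vehicle and 0.037 for 4OHT, both against untreated, and normexp 0.46 for 4OHT against either group. For the constitutive genes it was 0.87 for either treated group against untreated, and for vehicle 0.53 with normexp, 0.15 with quantile normalization, −0.41 with spike-ins and 0.68 with the mean of probes. For 4OHT against untreated it was 0.63, 0.20 and −0.71 under the first 3 of these, and for 4OHT against vehicle −0.31 with spike-ins. Leaving out 1 array gave 0.0029 to 0.14, 0.52 to 0.66 and 0.62 to 0.73 for the heat-inducible list, and 0.77 to 0.97, −0.10 to 0.10 and 0.81 to 0.90 for the constitutive genes. These medians were not recomputed for the fits that leave the values as they are.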
